A study of Mus musculus with 12 samples.

Results

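CXCL9, CXCL10 and CXCL11 are the chemokines that bind the receptor CXCR3. They were chosen by their symbols, and all 3 were present among the 23636 gene symbols of a table of RNA sequencing of CT26 cells, a mouse colon carcinoma line from BALB/c mice. The 12 libraries fall into 4 groups with 3 biological replicates in each. Cells were left with no treatment or received recombinant CX3CL1 at 2 µg/ml, IFN-γ at 100 ng/ml, or CX3CL1+IFN-γ, for 8 hours. The labels and the study's figure legend name IFN-γ only, whereas its text describes IFN-γ and TNF-α given before CX3CL1. CX3CL1 is a chemokine of another family, whose receptor is CX3CR1. The study asked how CX3CL1 changes gene expression in these tumor cells, alone and together with IFN-γ. All groups came from 1 cell line kept in culture, with no host cells, and the labels do not say what libraries with the same replicate number share. P-values therefore measure the spread between these cultures of a single line.

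CXCR3 is carried by activated T cells and NK cells, and its ligands draw these cells to inflamed tissue and to tumors. IFN-γ induces all of the ligands, in part through the transcription factor IRF1. CXCL10 is also a common target of type I interferon and of NF-kB, whereas CXCL9 is the ligand that depends most on IFN-γ.

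The genes lie side by side on the minus strand of mouse chromosome 5 in GENCODE vM21 (GRCm38, which is the same assembly as mm10). CXCL9 spans 92321347 to 92328079 and has 4 exons, CXCL10 spans 92346638 to 92348889 and has 4 exons, and CXCL11 spans 92359544 to 92365485 and has 5 exons in its first transcript. The gap was 18558 bases between CXCL9 and CXCL10 and 10654 bases between CXCL10 and CXCL11, and together they cover 44139 bases. ART3 runs on the opposite strand across CXCL10 and CXCL11, and it never exceeded 0.132 TPM. CXCL11 is annotated as a polymorphic pseudogene, since the C57BL/6 reference carries a frameshift in it, and the values here are of its mRNA only.

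The promoters of CXCL9 and CXCL10 are shown because CXCL10 was called higher with CX3CL1 while CXCL9 was near 0 there and was not called. Whether the responses of the genes differ was not tested. RefSeq on GRCm38.p6 gives the 250 bases before the start of transcription and the 50 bases after it, for 2 of the 3 genes, and the sequences are written 5′ to 3′ on the minus strand. CXCL9 is at chr5:92328030-92328329 and CXCL10 at chr5:92348840-92349139. The capitals mark matches to 3 short motifs: ISRE, the element bound by interferon-activated factors (GAAANNGAA), an NF-kB site (GGNNTTTCC) and the TATA box (TATAAA).
CXCL9 promoter: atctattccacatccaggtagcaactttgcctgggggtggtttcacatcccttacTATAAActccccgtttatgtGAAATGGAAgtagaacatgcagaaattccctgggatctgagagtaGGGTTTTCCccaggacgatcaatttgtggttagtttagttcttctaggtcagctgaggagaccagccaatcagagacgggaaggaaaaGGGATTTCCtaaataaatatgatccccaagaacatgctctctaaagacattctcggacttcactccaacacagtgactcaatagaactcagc
CXCL10 promoter: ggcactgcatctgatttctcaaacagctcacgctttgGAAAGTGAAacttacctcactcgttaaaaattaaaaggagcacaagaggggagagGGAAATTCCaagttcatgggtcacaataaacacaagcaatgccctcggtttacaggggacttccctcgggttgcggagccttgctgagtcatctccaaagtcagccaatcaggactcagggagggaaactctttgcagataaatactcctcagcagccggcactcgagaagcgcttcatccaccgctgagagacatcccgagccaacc
Both windows held 1 ISRE match, at -175 in CXCL9 and at -213 in CXCL10, counted from the start of transcription to the first base of the match. The CXCL9 window held 2 NF-kB matches, at -130 and -42, and the CXCL10 window held 1, on the opposite strand at -158. Only this spelling of the NF-kB site was searched. Sites with other letters are not counted, so these numbers do not rank the windows. TATAAA occurred at -195 in CXCL9 and did not occur in the CXCL10 window. Whether this match serves as a TATA box was not tested. GAS, the gamma-activated sequence, was searched as TTCNNNGAA, and these letters were in neither window. Each motif was searched on both strands, and no marked matches overlapped. Of the 32851 mouse promoters of this length, 8.56% held an ISRE match, 5.82% an NF-kB match, 13.6% TATAAA and 8.3% GAS. The matches describe the letters only, and no binding was measured.

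In each library 10613 to 10824 symbols reached 1 TPM (a transcript level scaled to gene length and to a fixed library total), and the depth behind the values is unknown. A listed 0 can be a failed estimate, because RPL26, which encodes a ribosomal protein that cells generally need, had 0 in every library. It was picked once its values were known. Pairs of replicates correlated at 0.994 or above in log2(TPM + 1), and none were identical. Of 19 leukocyte markers, 18 were in the table and 5 were listed at 0 in every library. CD3E, CD4, CD8A, MS4A1 and TYROBP were the 5, and PTPRC, the pan-leukocyte CD45, was at most 0.0441 TPM. The summed leukocyte markers, mostly CD68, were 9.99 to 18.1 TPM without treatment, 9.04 to 22.4 TPM with CX3CL1, 11.5 to 24.2 TPM with IFN-γ and 11.0 to 34.3 TPM with both. Endothelial markers summed to at most 0.0725 TPM. Of the epithelial markers of this colon line, EPCAM and CLDN7 were listed at 0 in every library and 2 of 9 had a mean of at least 1 TPM. Their sum was 51.2 to 64.7 TPM without treatment, 33.6 to 44.4 TPM with CX3CL1, 35.7 to 41.8 TPM with IFN-γ and 24.9 to 33.2 TPM with both. The sum of the fibroblast markers, mostly COL1A1, was 77.4 to 106.5, 55.2 to 72.3, 48.4 to 67.9 and 37.9 to 54.1 TPM. COL1A1, COL3A1 and PDGFRB had lower means with both than without treatment. The mean was higher for DCN (1.82 TPM with both, 0.214 TPM without treatment) and PDGFRA (6.40 and 3.68 TPM), and LUM was near 0. The part of these shifts in the values below was not tested.

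CXCL10 was the most abundant of the ligands in every library, CXCL11 came next and CXCL9 last. Without treatment, CXCL10 was at 9.46, 11.7 and 14.4 TPM in replicates 1, 2 and 3, CXCL11 at 1.04, 0.105 and 0.117 TPM, and CXCL9 at 0.0194 TPM in replicate 1 and listed at 0 in the others. Untreated CT26 cells therefore had CXCL10 mRNA at a moderate level, ranked 7074 to 8367 from the top of each library. Because these are bulk libraries, fewer cells making a ligand and less RNA per cell cannot be told apart.

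**Figure D1:**
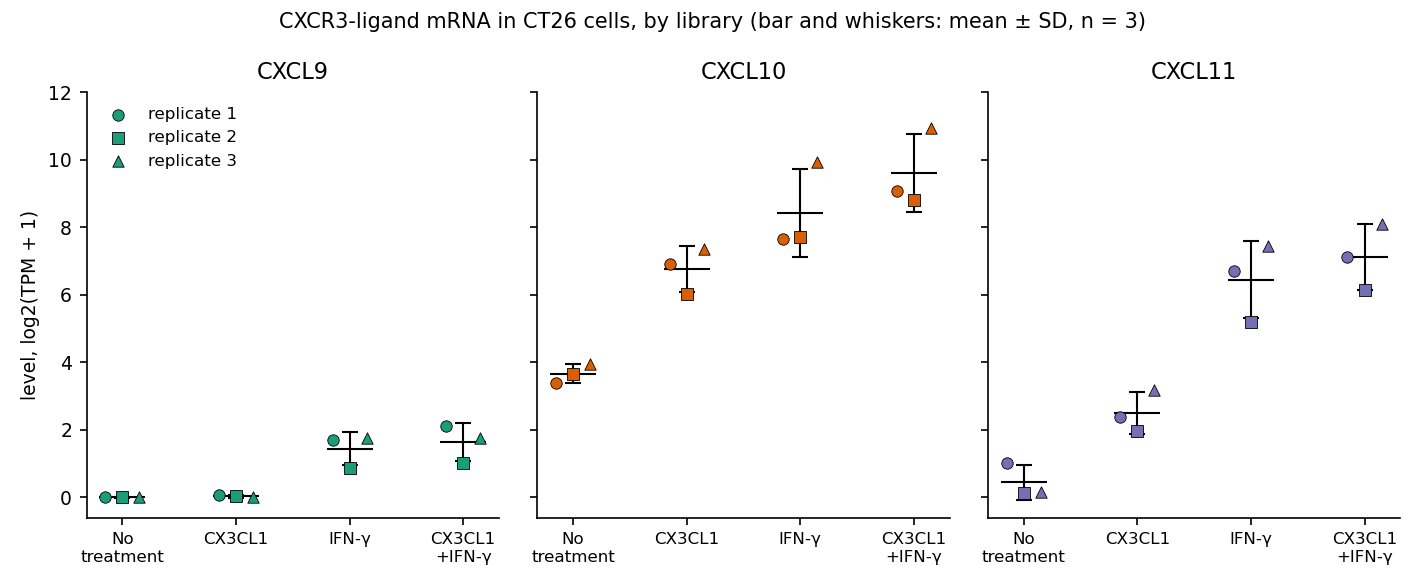
Level of CXCL9, CXCL10 and CXCL11 as log2(TPM + 1) in each of the 12 libraries, by treatment, with the replicate number as the marker and the mean ± SD (n = 3) as a bar with whiskers. CXCL10 ran from 9.46 TPM in the lowest untreated library to 1965 TPM in the highest library with both, whereas CXCL9 stayed at or near 0 without IFN-γ.

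With CX3CL1 alone, CXCL10 rose, CXCL9 did not pass the test and CXCL11 was higher in each CX3CL1 library without passing it. CXCL10 reached 119, 64.3 and 163 TPM, a mean of 115 ± 49.2 TPM (SD, n = 3) against 11.8 ± 2.46 TPM (SD, n = 3) without treatment. All CX3CL1 libraries lay above all untreated libraries, and by replicate number the ratios were 12.6, 5.50 and 11.3. CXCL11 was at 4.19, 2.88 and 8.10 TPM, a mean of 5.06 ± 2.72 TPM (SD, n = 3) against 0.421 ± 0.537 TPM (SD, n = 3), again with no overlap. CXCL9 was at 0.0544 and 0.0225 TPM in replicates 1 and 2 and listed at 0 in replicate 3, which overlapped the untreated libraries. Groups with no overlap in this direction were seen for 5.5% of the genes tested.

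All differences were tested with limma on log2(TPM + 1) over the 11878 genes whose mean reached 0.2 TPM, with p-values adjusted by Benjamini-Hochberg, and a gene is called at an adjusted p under 0.05. This scale makes the change of a gene with few TPM, such as CXCL9, look smaller than its ratio. For CX3CL1 against no treatment, 1 of the 3 ligands was called higher, and 1.78% of all genes tested were. The log2 fold change of CXCL10 was 3.10 (standard error 0.62, 95% confidence interval 1.75 to 4.45, adjusted p = 0.0182), the fifth largest rise of all genes tested. That of CXCL11 was 2.06 (standard error 0.56, interval 0.84 to 3.28, adjusted p = 0.113), and that of CXCL9 was 0.03 (standard error 0.26, adjusted p = 1.00). The CXCL10 call was lost without the filter on low TPM (adjusted p = 0.0833). It was also lost on leaving out any untreated library (0.0619 to 0.0741), CX3CL1 replicate 1 (0.0727) or CX3CL1 replicate 3 (0.0958). Its log2 fold change stayed between 2.81 and 3.47. The call was kept in 14 of 20 alternative settings, with a limma adjusted p of 0.00133 when only the groups compared were fitted. CXCL11 was called with a pseudocount of 0.1 (log2 fold change 3.67, adjusted p = 0.0136), when only the groups compared were fitted (adjusted p = 0.0119) and without IFN-γ replicate 2 (adjusted p = 0.0390). The study listed CXCL11 among the chemokines that CX3CL1 upregulated in CT26 cells. Its differential expression test was DESeq2, which differs from the limma fit used here.

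With IFN-γ alone all 3 ligands rose. CXCL10 was at 199.5, 207 and 974 TPM in replicates 1 to 3, a mean of 460 ± 445 TPM (SD, n = 3). CXCL11 was at 104, 35.5 and 172 TPM, a mean of 104 ± 68.0 TPM (SD, n = 3). CXCL9 was at 2.24, 0.845 and 2.36 TPM. Each IFN-γ library was above each untreated library for all of the ligands, as it was for 20.6% of the genes tested. All 3 were called higher, against 5.91% of all genes tested, and a block for the replicate number raised the number of genes called higher from 702 to 1353. CXCL11 had the largest log2 fold change of all genes tested, 6.0 (standard error 0.56, adjusted p = 1.81e-05). CXCL10 ranked 12 of all genes tested, at 4.76 (standard error 0.62, adjusted p = 2.74e-04), and the log2 fold change of CXCL9 was 1.43 (standard error 0.26, adjusted p = 0.00334). With a pseudocount of 0.1 in place of 1, CXCL9 was at 4.05 and CXCL11 at 7.86, both still called. Without IFN-γ replicate 3, which held the highest CXCL10 value, the log2 fold change of CXCL10 was 4.01 and it remained called, and without IFN-γ replicate 2 that of CXCL11 was 6.63.

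IFN-γ and CX3CL1 alone were also compared with each other, a comparison added after the values were seen. The log2 fold change of CXCL11 was 3.94, higher with IFN-γ (standard error 0.56, limma adjusted p = 0.00196) and that of CXCL9 was 1.41 (standard error 0.26, adjusted p = 0.00868), which was lost without IFN-γ replicate 3 (1.25, adjusted p = 0.0508). CXCL10 differed by 1.66 (standard error 0.62, 95% confidence interval 0.31 to 3.01, adjusted p = 0.151) and was called with the replicate number as a block (adjusted p = 0.0143). In all 3 the lowest IFN-γ library was above the highest CX3CL1 library, as in 18.3% of the genes tested, and 2 of the 3 ligands were called higher against 3.52% of all genes tested. Without IFN-γ replicate 3 the log2 fold change of CXCL10 was 0.91, without IFN-γ replicate 2 that of CXCL11 was 4.57, and with a pseudocount of 0.1 that of CXCL9 was 3.83.

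With CX3CL1+IFN-γ, each ligand had its highest group mean, but none was called against IFN-γ alone. CXCL10 was at 532, 448 and 1965 TPM, a mean of 982 ± 853 TPM (SD, n = 3), and in replicate 3 it ranked 66 from the top of all symbols. CXCL11 was at 138, 69.9 and 271 TPM, a mean of 160 ± 102 TPM (SD, n = 3), and CXCL9 at 3.32, 1.02 and 2.42 TPM. For all of them the range overlapped that of the IFN-γ libraries. Against no treatment all 3 were called higher (8.21% of all genes tested), with log2 fold changes of 5.94 for CXCL10 (standard error 0.62, limma adjusted p = 2.84e-05), 6.67 for CXCL11 (0.56, 5.55e-06) and 1.62 for CXCL9 (0.26, 8.16e-04). Against CX3CL1 alone all 3 were called higher as well (3.76% of all genes tested). CXCL11 led all genes tested there, at 4.61 (standard error 0.56, adjusted p = 4.61e-04), with CXCL10 at 2.84 (0.62, 0.0200) and CXCL9 at 1.60 (0.26, 0.00303). This CXCL10 call was lost without the filter (adjusted p = 0.0675), without CX3CL1 replicate 2 (0.0652) and without CX3CL1+IFN-γ replicate 3 (2.17, 0.0849), where that against no treatment was 5.27. With a pseudocount of 0.1, CXCL9 was at 4.33 against no treatment and 4.11 against CX3CL1, and CXCL11 at 8.54 against no treatment. A block for the replicate number raised the number of genes called higher against CX3CL1 from 447 to 1035.

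**Figure D2:**
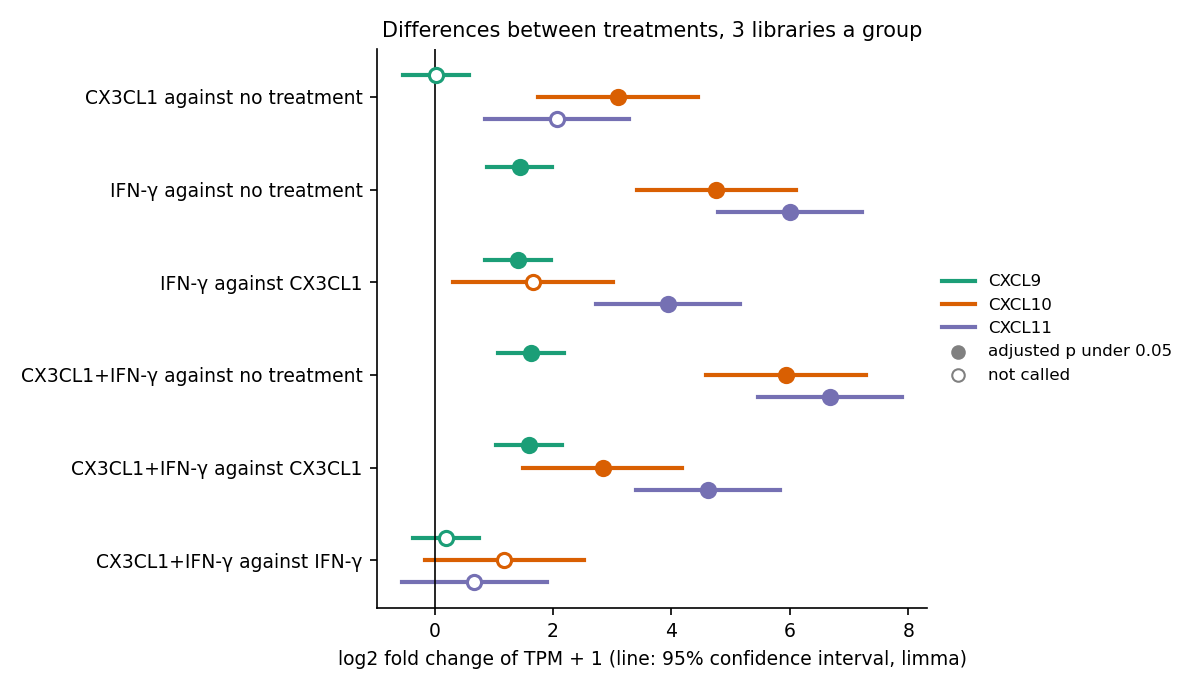
Log2 fold change of TPM + 1 for the 3 ligands in 6 comparisons of treatments, with the 95% confidence interval from limma as a line and a filled point where the adjusted p was under 0.05. All intervals for CX3CL1+IFN-γ against IFN-γ cross 0, and CXCL9 is near 0 for CX3CL1 against no treatment.

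Against IFN-γ alone, CX3CL1+IFN-γ gave log2 fold changes of 1.18 for CXCL10 (standard error 0.62, 95% confidence interval -0.17 to 2.53), 0.67 for CXCL11 (0.56, interval -0.55 to 1.89) and 0.19 for CXCL9 (0.26, interval -0.37 to 0.74), each with a limma adjusted p of 0.975. None of the 3 was called higher, and 0.345% of all genes tested were. Libraries with the same replicate number gave a narrower picture. CXCL10 was higher with the combination by 2.67, 2.16 and 2.02 times in replicates 1, 2 and 3, CXCL11 by 1.33, 1.97 and 1.58 times, and CXCL9 by 1.48, 1.21 and 1.02 times. All 3 ligands were higher in 3 of 3 pairs, as were 25% of all genes tested. A block for the replicate number gave an adjusted p of 0.301 for CXCL10, 0.678 for CXCL11 and 0.774 for CXCL9, and the number of genes called higher was 89, up from 41. Without CX3CL1+IFN-γ replicate 3 the log2 fold change of CXCL10 was 0.51, without IFN-γ replicate 3 it was 1.93, and without IFN-γ replicate 2 that of CXCL11 was 0.046. The intervals do not show that the combination and IFN-γ alone act alike.

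On the linear scale, the combination can be set against the sum of the single effects, which is the CX3CL1 value plus the IFN-γ value minus the untreated value. For CXCL10 the combined level was 1.72, 1.73 and 1.75 times this sum in replicates 1, 2 and 3. Over the group means the combined 982 TPM exceeded the sum of 564 TPM by 418 TPM, with a standard error of 556 TPM. For CXCL11 the ratios were 1.29, 1.83 and 1.51, and for CXCL9 they were 1.46, 1.18 and 1.02. On the log2 scale the interaction was of the opposite sign for CXCL10, -1.92 (standard error 0.88, limma unadjusted p = 0.0484, adjusted p = 1.00), and for CXCL11, -1.39 (standard error 0.79, adjusted p = 1.00), and it was 0.16 (standard error 0.36) for CXCL9. The log2 difference that CX3CL1 made to CXCL10 was 3.10 without and 1.18 with IFN-γ. No gene was called in the interaction by limma (0% of genes tested), and 273 (2.3%) had an unadjusted p under 0.05.

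**Figure D3:**
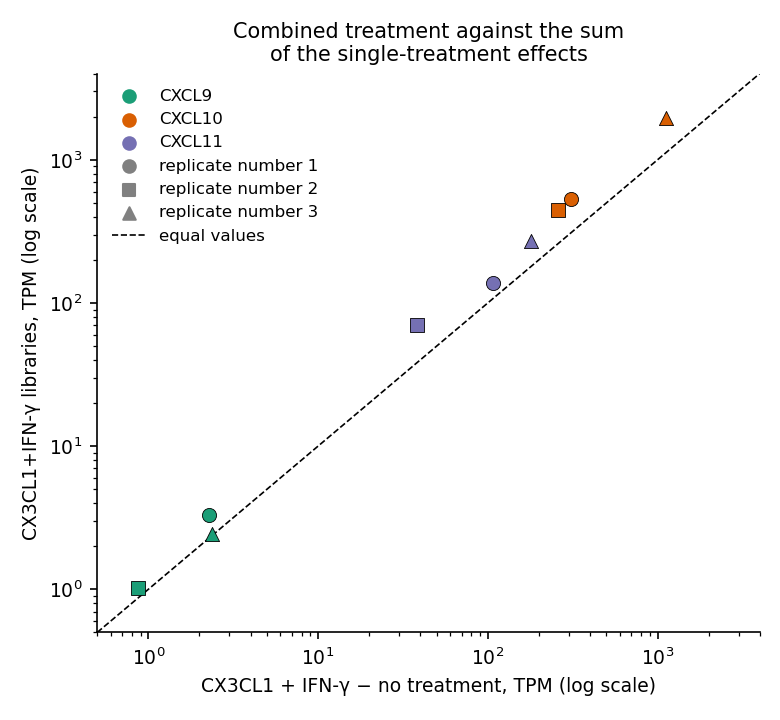
TPM in the CX3CL1+IFN-γ library against the sum of the single-treatment effects for the same replicate number, both on log scales, with a dashed line where they are equal. The CXCL10 points lie 1.72 to 1.75 times above the line, while the CXCL9 points lie 1.02 to 1.46 times above it.

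The share of each ligand in their summed level was compared between treatments. TPM are per length, so levels were set side by side between genes. How TPM were computed and how overlapping genes were counted is not given, which limits this. The summed level of the 3 ligands was 12.3 ± 2.02 TPM without treatment, 120.5 ± 51.8 TPM with CX3CL1, 566 ± 505 TPM with IFN-γ and 1144 ± 952 TPM with both (SD, n = 3 each). CXCL10 made up 89.9%, 99.1% and 99.2% of the sum without treatment and 96.6%, 95.7% and 95.3% with CX3CL1. Its share was 65.3%, 85.1% and 84.8% with IFN-γ and 79.0%, 86.3% and 87.8% with both, each below all untreated and CX3CL1 libraries. CXCL11 made up 3.39% to 4.75% with CX3CL1, 14.6% to 34.0% with IFN-γ and 12.1% to 20.5% with both. CXCL9 was at most 0.734% of the sum in any library.

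The log2 ratio of CXCL10 to CXCL11, each as TPM + 1, was 4.53, 4.08 and 4.17 with CX3CL1 and 0.94, 2.51 and 2.50 with IFN-γ. The groups did not overlap and the means differed by -2.28, with a two-sided exact permutation p of 0.1, the smallest that 3 libraries against 3 allow. Adjusted over the 6 ratios compared, p was 0.3. For CXCL9 to CXCL11 the mean log2 ratio was -2.47 ± 0.65 with CX3CL1 and -5.0 ± 0.69 with IFN-γ (SD, n = 3 each), with the same exact permutation p of 0.1 and adjusted p of 0.3. CXCL9 was at most 0.0544 TPM with CX3CL1, so the added 1 set its part of the ratio there. The difference therefore does not show that CXCL9 fell relative to CXCL11. Between the combination and IFN-γ alone, the log2 ratio of CXCL9 to CXCL10 differed by -1.0, -0.98 and -0.99 in replicates 1, 2 and 3. The groups overlapped, since the ratio also varied between replicate numbers, from -5.95 to -8.18 with IFN-γ and from -6.95 to -9.17 with both (exact permutation p = 0.4, adjusted p = 0.6).

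The spread between replicates was wide under IFN-γ. CXCL10 in IFN-γ replicate 3 was 4.88 times that in replicate 1, and in the combined group the highest value was 4.38 times the lowest, again in replicate 3. CXCL11 followed, with replicate 3 highest and replicate 2 lowest with IFN-γ and with both. CXCL9 differed, since its highest value with both was in replicate 1. Other interferon-responsive genes stood high in the same libraries. IRF1 was at 78.7, 77.6 and 166 TPM with IFN-γ and 77.7, 66.9 and 126 TPM with both. RSAD2, an antiviral protein that CXCL10 resembled in pattern, was at 56.4, 65.2 and 179 TPM and at 85.6, 108 and 248 TPM. GBP5, a guanylate-binding protein, was at 25.2, 28.5 and 118 TPM and at 53.9, 57.2 and 179 TPM. IRF7, in contrast, was at 672, 652 and 764 TPM and at 653, 677 and 775 TPM, with replicate 3 little above the others.

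Over the 12 libraries, which share 4 group means, the Pearson correlation of log2(TPM + 1) was 0.942 between CXCL10 and CXCL11, 0.936 between CXCL9 and CXCL11 and 0.810 between CXCL9 and CXCL10. After the group means were subtracted these were 0.744, 0.710 and 0.379. The 5 tested genes most like CXCL10 over the 12 libraries were SLFN2, RNF19B, RSAD2, SP140 and APOBEC1 (r from 0.981 to 0.986). For CXCL11 they were PHF11A, IFI209, GBP4, GBP10 and IFI207 (r from 0.992 to 0.997), and for CXCL9 they were MS4A4D, A530032D15RIK, IFI208, MPEG1 and ABI3BP (r from 0.987 to 0.994). No gene appeared in more than 1 of these lists.

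CXCR3, the receptor of the ligands, was listed at 0 in 11 of 12 libraries and was at 0.0295 TPM in IFN-γ replicate 1. DPP4, the protease that trims these ligands, was at 0.0111 TPM in 1 library and listed at 0 in the others, and ACKR1, a scavenger of many chemokines, was listed at 0 in all 12. ACKR3, an atypical receptor that binds and removes CXCL11, was the only partner tested. It was at 9.54, 7.06 and 6.91 TPM without treatment, 15.6, 14.8 and 11.9 TPM with CX3CL1, 14.0, 14.4 and 12.3 TPM with IFN-γ, and 20.2, 23.6 and 20.1 TPM with both. Its log2 fold change was 0.78 with CX3CL1 (limma adjusted p = 0.00930) and 0.73 with IFN-γ (adjusted p = 0.00588), and it was 0.62 for both against IFN-γ (adjusted p = 0.145). CX3CR1, the receptor for CX3CL1, was added after its values were seen and was at 0 to 0.154 TPM over the 12 libraries. These values are of mRNA, whereas the study reported high CX3CR1 on CT26 cells by antibody staining of the protein.

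Genes from the IFN-γ receptor to the chemokine promoters were examined in a list of 19, of which 18 were tested. With IFN-γ 8 of the 18 were called higher and none lower, while 5.91% of all genes tested were called higher. Their median log2 fold change was 0.50 against 0.03 over all genes tested. USP18, a brake on interferon signaling, rose by 3.20 on the log2 scale (limma adjusted p = 1.39e-05), and NMI by 2.37 (adjusted p = 3.75e-06). With CX3CL1 5 of 18 were called higher (1.78% of all genes tested were) and none lower, with a median of 0.30 against -0.02. USP18 (2.42, limma adjusted p = 5.81e-04) and NMI (1.07, adjusted p = 0.00327) were among the 5. IRF1, which binds interferon elements, was at 29.2, 23.5 and 34.0 TPM with CX3CL1 against 20.5, 18.8 and 19.4 TPM and was not called (0.53, adjusted p = 0.778), and it was higher with IFN-γ than with CX3CL1 (1.78, adjusted p = 0.00376). IFNGR1, a chain of the IFN-γ receptor, had a log2 fold change of 0.01 with CX3CL1 and -0.14 with IFN-γ. The other chain, IFNGR2, had 0.58 and 0.49 and was not called in either (limma adjusted p = 0.116 and 0.0831). With both against IFN-γ none of the 18 was called in either direction by limma, and 0.345% of all genes tested were called higher.

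NF-kB subunits and regulators, 14 genes that were all tested, held genes called higher with CX3CL1 both without and with IFN-γ. With CX3CL1 7 of 14 were called higher and none lower (median log2 fold change 0.75), and with IFN-γ 5 were (median 0.63), against the medians of -0.02 and 0.03 over all genes tested. The shares of all genes tested called higher were 1.78% with CX3CL1 and 5.91% with IFN-γ. NFKBIZ, an inducible nuclear regulator, was at 6.17, 5.68 and 7.19 TPM without treatment and at 49.5, 44.0 and 43.3 TPM with CX3CL1 (log2 fold change 2.67, limma adjusted p = 1.28e-04). With IFN-γ it was at 17.3, 8.46 and 10.4 TPM, and with both at 89.9, 47.8 and 72.6 TPM. NFKBIZ (2.46, adjusted p = 3.31e-04) and NFKB1, the subunit (0.82, adjusted p = 0.00151), were the 2 of 14 called higher with both against IFN-γ. In that comparison 0.345% of all genes tested were called higher. NFKBIA, the inhibitor that NF-kB itself induces, rose with CX3CL1 (2.25, adjusted p = 0.00131) and with IFN-γ (2.05, adjusted p = 7.10e-04).

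Type I interferon and virus-sensing genes, the other route to CXCL10, numbered 21 tested. With CX3CL1 9 were called higher (median log2 fold change 1.05), with IFN-γ 12 (median 1.69) and with both against IFN-γ none, and none was called lower. Of all genes tested, 1.78%, 5.91% and 0.345% were called higher in these comparisons. IFIT3, an interferon-induced antiviral gene, rose from 8.13, 2.40 and 5.95 TPM to 41.3, 22.6 and 48.0 TPM with CX3CL1 (2.61, limma adjusted p = 0.00356) and to 130, 168 and 317 TPM with IFN-γ (5.0, adjusted p = 7.64e-06). IFNB1, which encodes interferon-β, stayed under 1 TPM in all libraries. It was 0.20 higher on the log2 scale with CX3CL1 (adjusted p = 1.00) and rose by 0.77 with IFN-γ (adjusted p = 0.0116).

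Of the 16 GTPase and antigen-processing genes used to check the response to IFN-γ, all 16 were called higher with IFN-γ (median log2 fold change 3.82), 6 with CX3CL1 (median 1.37) and none with both against IFN-γ. The shares of all genes tested called higher were 5.91%, 1.78% and 0.345%, in that order. GBP2 rose by 5.44 with IFN-γ (limma adjusted p = 2.89e-06) and by 2.82 with CX3CL1 (adjusted p = 0.00103). Factors that govern the decay of AU-rich mRNAs, to which chemokine mRNAs belong, numbered 8 tested. With CX3CL1 2 were called higher (1.78% of all genes tested were), with IFN-γ none (5.91%) and with both against IFN-γ 1 (0.345%). That 1 was ZC3H12A, an RNase that degrades inflammatory mRNAs, at 10.02, 6.54 and 7.08 TPM with IFN-γ and 60.8, 27.2 and 46.4 TPM with both (2.31, adjusted p = 0.00128).

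The other CXC chemokines, which attract neutrophils through CXCR2 where they were tested here, were 12 in the list, of which 5 were tested. Of the 5, 4 were called higher with CX3CL1, 4 with IFN-γ and all 5 with both against IFN-γ. The shares over all genes tested were 1.78%, 5.91% and 0.345%. CXCL1 was at 6.70, 4.03 and 4.15 TPM without treatment and 620, 305 and 393 TPM with CX3CL1 (log2 fold change 6.17, limma adjusted p = 6.87e-06). With IFN-γ it was at 71.7, 39.0 and 54.5 TPM, and with both at 1551, 500 and 1218 TPM, with no overlap between these groups (4.17, adjusted p = 2.58e-04). Of the 5, CXCL1 and CXCL5 were called lower with IFN-γ than with CX3CL1, by log2 fold changes of -2.95 and -3.00 (adjusted p = 0.00111 and 6.08e-04), and CXCL2, CXCL3 and PPBP were not called.

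The genes around the ligands were examined next. The 5 nearest annotated protein-coding genes on either side and the genes overlapping them made 12 neighbours, of which 11 were in the table and 7 were tested. With CX3CL1 1 of the 7 was called higher (1.78% of all genes tested were), with IFN-γ 2 (5.91%), and none lower. U90926, a gene at 92209893 to 92215408 on the minus strand, was called in both. It was at 3.51, 3.14 and 4.34 TPM without treatment, 31.1, 17.0 and 19.0 TPM with CX3CL1, 51.3, 26.5 and 27.6 TPM with IFN-γ and 139, 82.4 and 111.5 TPM with both. Each treated group was above the untreated libraries, and the combined libraries were above all others. Its log2 fold change was 2.29 with CX3CL1 (standard error 0.27, limma adjusted p = 5.81e-04), 2.89 with IFN-γ (adjusted p = 1.91e-05) and 1.67 for both against IFN-γ (adjusted p = 0.0210). U90926 replicate 1 was highest in all treated groups, whereas CXCL10 was highest in replicate 3.

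Between U90926 and CXCL9, NAAA, a lysosomal amidase, had log2 fold changes of 0.02 with CX3CL1 and 0.47 with IFN-γ and was not called. SDAD1, next to CXCL9, was called with IFN-γ at 0.36 (limma adjusted p = 0.0357). On the other side NUP54, a nuclear pore component, had 0.12 and 0.02, and SCARB2, a lysosomal receptor, had 0.24 and 0.43 (adjusted p = 0.0579 with IFN-γ). STBD1 and USO1, the outermost tested, were not called with either. PPEF2 and ART3 stayed under 0.2 TPM, and FAM47E and CCDC158 were listed at 0 in all libraries.

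**Figure D4:**
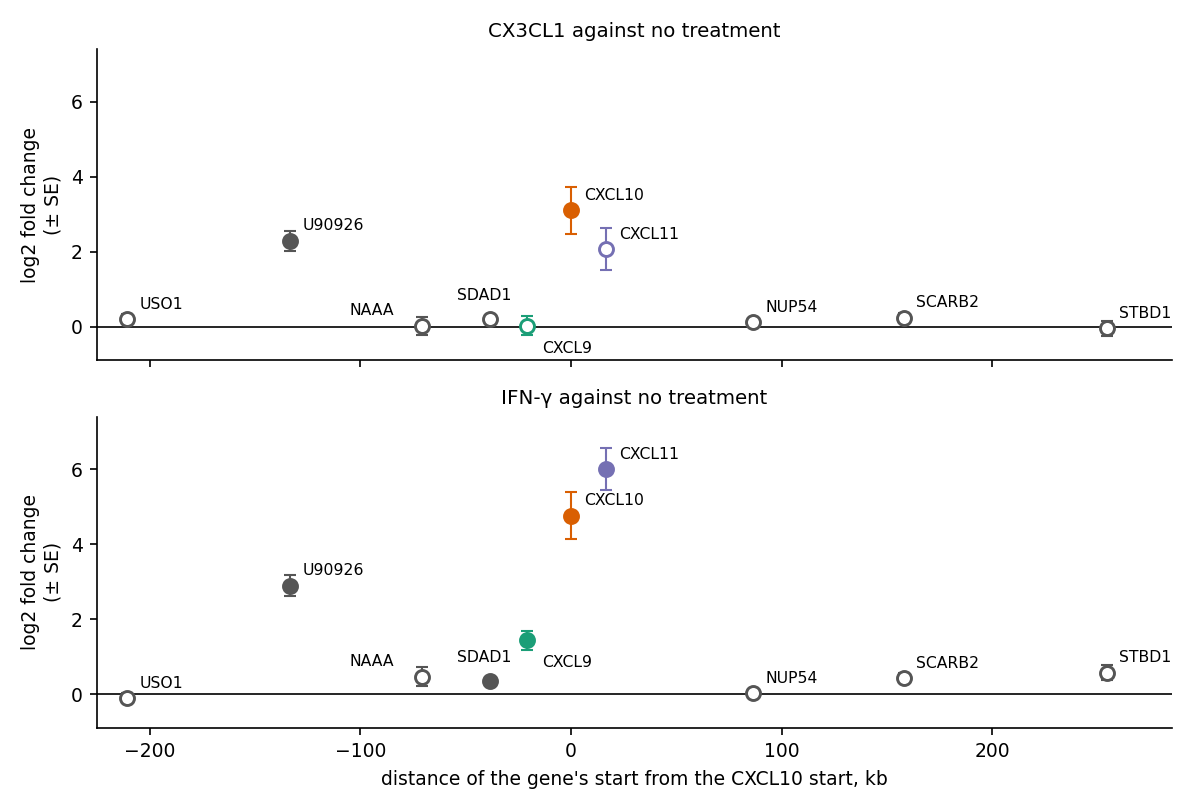
Log2 fold change ± SE of the ligands and the 7 tested neighbours against the distance in kb of each gene's start from that of CXCL10, for CX3CL1 (top) and IFN-γ (bottom) against no treatment, with filled points where the adjusted p was under 0.05. CXCL10 and U90926 are called in both panels, whereas CXCL9, CXCL11 and SDAD1 are called in the lower panel.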

How the data were processed

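From strand-specific mRNA libraries, the authors aligned reads to mm10 with STAR 2.7.3a and tested gene counts with DESeq2 1.22.1. The deposited values are TPM per gene symbol, scaled by the authors to 1000000 per library. How TPM were computed, the annotation and how overlapping genes were counted are not given in the sources used here. Of the symbols, 26 had become dates and 2 occurred more than once.

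Tests were run with limma 3.58.1 in R 4.3.3 (lmFit, and eBayes with its trend option) on log2(TPM + 1). They used all 12 libraries in 1 fit and no block, since TPM do not suit the authors' count test. The fit was tested on simulated data. Tables were made with pandas 2.3.3, and exact permutation tests with scipy 1.17.1.

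After group means were subtracted, same-numbered libraries correlated across genes for IFN-γ and no treatment (0.429, 0.460 and 0.220), CX3CL1+IFN-γ and IFN-γ (0.630, 0.635 and 0.649), CX3CL1+IFN-γ and CX3CL1 (0.351, 0.353 and 0.428), and IFN-γ and CX3CL1 (0.584, 0.361 and 0.226), so the block is given for these comparisons. The pairing rests on these correlations and on no label.

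The members and the gene lists were chosen with earlier results of these data known. Named from each list were up to 4 called genes without overlap between groups, by size. Genes named beside them, such as IFNGR1, IFNB1 and CX3CR1, were chosen after their values were seen. A member of the IFN-γ list is not reported here by name.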

Additional observations from a re-analysis of the deposited data

How the results depend on the processing

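TPM carry no depth, so precision rests on 3 libraries per group. Alternatives changed the pseudocount (0.1), the filter (none, or a mean of 1 TPM), the scaling (median ratios, quantiles), the trend option, the groups fitted and the block, or left out 1 library. The call of CXCL10 for CX3CL1 against no treatment (log2 fold change 3.10) and against the combination (2.84) was lost without the filter (adjusted p = 0.0833 and 0.0675), and CXCL11 for CX3CL1 against no treatment was gained with a pseudocount of 0.1 (3.67, adjusted p = 0.0136), with only the groups compared (2.06, 0.0119) and with the replicate block (2.06, 0.00811), although same-numbered libraries of this pair of groups did not all deviate together (0.387, 0.005 and 0.301). The replicate block also gained CXCL10 for IFN-γ against CX3CL1 (1.66, adjusted p = 0.0143) and changed no other call of a ligand. The log2 ratio of CXCL9 to CXCL10, IFN-γ against CX3CL1, reversed with a pseudocount of 0.1 (2.16). CXCL9 was at most 0.0544 TPM with CX3CL1, so the pseudocount largely set its log2 value there. CXCL9 for CX3CL1 against no treatment could not be fitted with only the groups compared, where it fell under the filter.

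The numbers of genes called were 232 for CX3CL1 against no treatment, 932 for IFN-γ against no treatment, 43 for the combination against IFN-γ, 558 for it against CX3CL1, 1417 for it against no treatment, 544 for IFN-γ against CX3CL1 and 0 for the interaction. With the replicate block they were 455, 1929, 95, 1369, 2464, 1601 and 52. The combination against IFN-γ gave 28 without the filter and 20 with only the groups compared, where the combination against CX3CL1 gave 347 and IFN-γ against CX3CL1 252. Quantile normalization gave 1 in the interaction. Higher and lower calls for IFN-γ against no treatment were 702 and 230, but 556 and 536 with quantile normalization and 640 and 351 with median-ratio scaling. The combination against CX3CL1 gave 447 and 111, but 349 and 228 with the former and 357 and 187 with the latter, and the combination against no treatment 975 and 442, but 797 and 888 with the former.

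Leaving out 1 library at a time gave log2 fold changes of 2.81 to 3.47 for CXCL10 and 1.72 to 2.35 for CXCL11 (CX3CL1 against no treatment), 2.17 to 3.23 for CXCL10 (the combination against CX3CL1), 1.25 to 1.69 for CXCL9 (IFN-γ against CX3CL1), -0.090 (without IFN-γ replicate 2) to 0.50 for CXCL9 (the combination against IFN-γ, and -0.05 without CX3CL1+IFN-γ replicate 1) and -0.12 to 0.47 for CXCL9 in the interaction (-0.08 without CX3CL1+IFN-γ replicate 1). The log2 ratio of CXCL9 to CXCL10, IFN-γ against CX3CL1, ran from -0.77 to 0.34 (without IFN-γ replicate 3, and 0.11 without CX3CL1 replicate 2), and that of CXCL10 to CXCL11, the combination against IFN-γ, from -0.018 (without IFN-γ replicate 1) to 0.78. Genes called ran from 152 (without untreated replicate 3) to 268 for CX3CL1 and from 536 (without untreated replicate 3, and 550 without IFN-γ replicate 3) to 1499 (without CX3CL1 replicate 2) for IFN-γ, each against no treatment. They ran from 16 (without CX3CL1+IFN-γ replicate 3) to 54 for the combination against IFN-γ, with 17 to 26 on leaving out CX3CL1+IFN-γ replicate 1 or any IFN-γ library, and without CX3CL1+IFN-γ replicate 3 they fell to 268 of a range up to 667 against CX3CL1 and to 920 of a range up to 1892 against no treatment. For IFN-γ against CX3CL1 they ran from 185 (without IFN-γ replicate 3) to 583, with 274, 330 and 344 without IFN-γ replicate 1, IFN-γ replicate 2 and CX3CL1 replicate 2. The interaction gave 0 to 11 (without untreated replicate 1). For the combination against IFN-γ, CXCL10 ran from 0.51 to 1.93 and CXCL11 from 0.046 to 1.17, and in the interaction CXCL10 ran from -2.59 to -1.17 and CXCL11 from -2.01 to -0.90 (-2.99 with a pseudocount of 0.1). The log2 fold changes of CXCL10 and CXCL11 kept their sign in all of these fits.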
